A study of Mus musculus with 6 samples.

Results

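The collagen genes of the mouse were examined in muscle satellite cells, the Pax7-expressing stem cells that lie between the muscle fibre and its basement membrane. The family was taken as every gene whose symbol consists of Col, a number, a and a number, which gave 44 genes among 27179 gene IDs. Satellite cells were sorted by flow cytometry from the muscle of wild-type C57Bl/6N mice, and RNA-seq gave gene counts for 3 libraries of the high-fat diet and 3 of chow. The study was designed to set obese against lean mice. The labels give neither the age or sex of the mice, the length of feeding, nor whether each library came from 1 animal. The p-values therefore set the difference between diets only against the spread between these libraries, part of which may be technical.

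Collagens are trimers of chains that wind into a triple helix through repeated glycine-containing triplets. Fibrillar collagens build the tensile fibres of connective tissue, collagen IV forms the sheet-like network of the basement membrane, collagen V starts and limits the growth of fibrils, and collagen VI makes beaded microfilaments that link cells to both. In mouse muscle, satellite cells themselves make part of the matrix of their niche: collagen V, whose genes lie downstream of Notch, acts on the calcitonin receptor Calcr to keep the cells quiescent, and collagen VI is needed for their self-renewal.

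Library totals ran from 14930394 to 18217818 counts, and 3 reads, the limit that a count of 0 allows, were worth 0.162 to 0.195 CPM (read counts scaled to a library of 1e+06). Levels are CPM after TMM (trimmed mean of M values) scaling, and differences come from edgeR's quasi-likelihood test with p-values adjusted by the Benjamini-Hochberg method over all 13202 genes tested. A gene was called changed at an adjusted p under 0.05. Of 12 satellite cell markers all were tested and 0 were called in edgeR, with 1 higher and 4 lower at an unadjusted p under 0.05 (41.7%, beside 7.65% of all genes). The share of all genes at this p rose with level, to 22% over 100 CPM, where most of these markers lay. Pax7 had 171, 247 and 283 CPM on the high-fat diet, against 370.4, 405 and 429.7 CPM on chow, which did not overlap (log2 fold change -0.78, SE 0.20, adjusted p = 0.18 in edgeR). Pax7 was the 1 marker of this list called, as lower, in DESeq2 (adjusted p = 0.0123), in limma-voom (0.0281) and in edgeR with no filter (0.0183). These fits called 1.5%, 0.75% and 0.839% of all genes. The list summed to 5824, 4753 and 5156 CPM on the high-fat diet and 6275, 5533 and 5697 CPM on chow. Of 11 immune markers, Adgre1, C1qa and Cd3e had 0 counts in all 6 libraries, while Cd68, a lysosomal protein of macrophages, had 6.31 to 17.5 CPM on the high-fat diet and 15.6 to 31.01 CPM on chow, and Lyz2 0 to 2.75 CPM on the high-fat diet and 1.57 to 17.5 CPM on chow.

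In satellite cells the family was led by a small number of genes. Of the 44 genes, 30 passed the filter on low counts, 8 had a mean over 100 CPM and a further 10 lay between 10 and 100 CPM. The 8 most abundant were Col4a1, Col3a1, Col5a1, Col15a1, Col5a2, Col4a2, Col19a1 and Col6a1. On the high-fat diet, summed collagen RNA stood at 2579, 2371 and 2318 CPM in libraries 1, 2 and 3, and on chow at 2018, 2072 and 1947 CPM. The means were 2423 ± 138 CPM on the high-fat diet and 2013 ± 62.6 CPM on chow (SD, n = 3 each), and the diets did not overlap. In a bulk sample, more cells of a type and more RNA per cell cannot be told apart. The 15 fibroblast and fibro-adipogenic progenitor markers summed to 2164, 1828 and 2082 CPM on the high-fat diet, against 1724, 1469 and 1470 CPM on chow, which did not overlap either. Serping1, with means of 638 CPM on the high-fat diet and 421 CPM on chow, gave the largest difference within that sum. Without Serping1 the sums overlapped between the diets. Of the 13 markers tested, 10 had a positive and 3 a negative log2 fold change, and 0 were called in edgeR. Their part in the result was not tested.

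No collagen gene passed the adjusted threshold. In edgeR 0 of the 30 tested were called, beside 34 of all 13202 genes (0.258%), and 5 had an unadjusted p under 0.05 (16.7%, beside 7.65% of all genes). These were 4 that lay higher on the high-fat diet, Col4a1, Col4a2, Col6a1 and Col27a1 (3.7% of all genes lay higher at this p), and 1 that lay lower, Col19a1 (3.95% of all genes). Called genes that lay higher made up 0.0909% of all genes. DESeq2 and limma-voom each called 1 of the 30, Col4a1 (adjusted p = 0.000161 and 0.00718), where they called 1.5% and 0.75% of all genes. Col4a1 was also the 1 member called in edgeR with no filter (0.839% of all genes) and at an adjusted p under 0.1 (0.379%), while 0 were called with the replicate number as a block (0.341%), and DESeq2 with no filter called Col4a1 and Col6a1 (1.41%). The values of the diets did not overlap for 10 of the 30 (33.3%), beside 15.3% of all tested genes. Of these, 7 lay higher on the high-fat diet (7.42% of all genes) and 3 lay lower (7.87%). The median log2 fold change of the 30 was 0.09 and that of all tested genes was -0.01, and 17 of the 30 were positive, beside 49.5% of all genes.

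The share without overlap rose with level for all tested genes, and among collagens it was highest over 100 CPM but did not rise steadily. Among the 8 collagens over 100 CPM, 7 did not overlap, where 28% of the 1681 genes at that level did not. Of these 7, Col4a1, Col4a2, Col5a1, Col5a2, Col6a1 and Col15a1 lay higher and Col19a1 lower on the high-fat diet, while Col3a1 overlapped. Between 10 and 100 CPM, 1 of 10 collagens (Col27a1) did not overlap, beside 15.8% of genes at that level. Between 1 and 10 CPM it was 2 of 12 (Col4a3 and Col11a2), beside 11.1%. The share at an unadjusted p under 0.05 also rose with level. It was 22% of genes over 100 CPM, 8.55% from 10 to 100 CPM and 2.62% from 1 to 10 CPM. Among collagens it was 4 of 8, 1 of 10 and 0 of 12 at these levels. Shares of the other lists at this p are set beside all genes, without matching for level except where a level is given. The coefficient of variation within a diet had a median of 7.45% for the 8 abundant collagens and 14.7% for all genes over 100 CPM, against 91.8% for the 12 low collagens and 83.6% for all genes from 1 to 10 CPM.

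**Figure D1:**
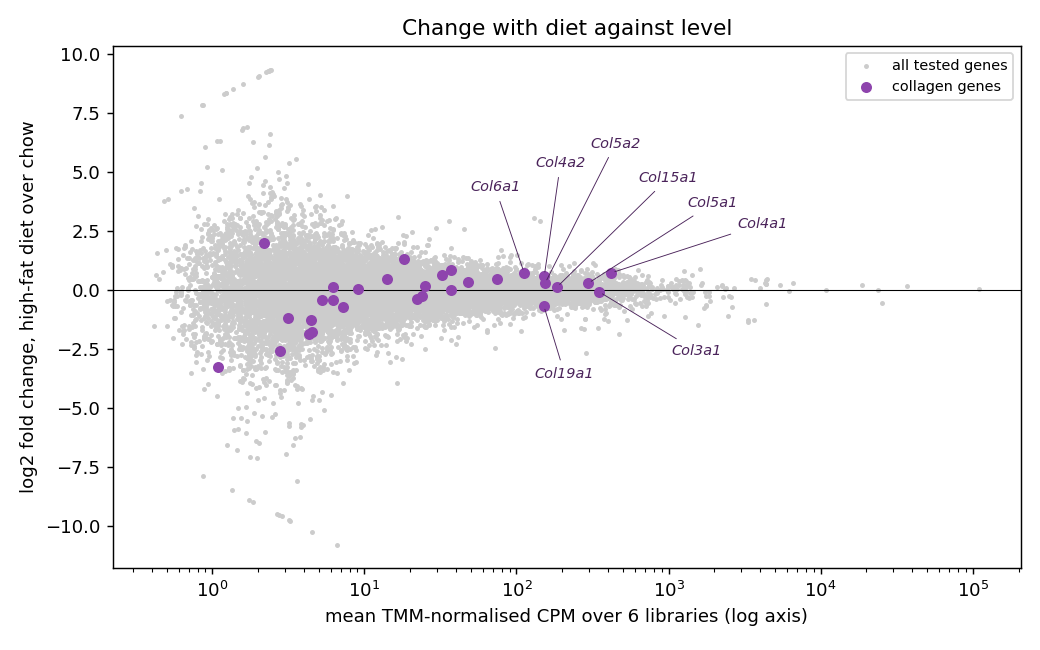
Log2 fold change (high-fat diet over chow) against the mean level over 6 libraries (TMM-normalised CPM, log axis) for 13202 tested genes, with the 30 tested collagen genes as large points and the 8 over 100 CPM named. Collagens under 10 CPM scatter widely, as do other genes of that level, and the abundant ones lie between -0.66 (Col19a1) and 0.75 (Col6a1).

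The order of the levels was read per length, as RPKM, the CPM divided by the length of the longest annotated transcript in kilobases. On the high-fat diet Col4a1 stood first at 79.5 ± 3.28 RPKM, then Col3a1 at 61.4 ± 10.02, Col5a1 at 38.8 ± 3.34, Col15a1 at 37.5 ± 1.57, Col6a1 at 34.3 ± 3.23, Col4a2 at 28.7 ± 4.31, Col19a1 at 27.5 ± 5.85 and Col5a2 at 25.8 ± 0.748 RPKM (SD, n = 3). On chow Col3a1 stood first at 64.8 ± 4.11 RPKM, then Col4a1 at 47.7 ± 2.98, Col19a1 at 43.5 ± 5.70, Col15a1 at 34.0 ± 1.96, Col5a1 at 31.6 ± 1.02, Col5a2 at 20.9 ± 0.988, Col6a1 at 20.4 ± 1.75 and Col4a2 at 18.6 ± 0.770 RPKM. Several neighbours in these orders lay closer than the larger of their SDs, so that their order is not resolved. On the high-fat diet these were Col5a1 and Col15a1, Col15a1 and Col6a1, Col4a2 and Col19a1, and Col19a1 and Col5a2, and on chow Col4a1 and Col19a1, and Col5a2 and Col6a1. As a share of the family's RNA per length, Col4a1 took 19.8% ± 0.777 on the high-fat diet and 14.0% ± 0.706 on chow, Col19a1 6.80% ± 1.11 and 12.7% ± 1.72, and Col3a1 15.2% ± 2.09 and 19.0% ± 1.06. Among 11869 tested genes with a length, Col3a1, Col4a1, Col19a1, Col15a1 and Col5a1 stood at percentiles 95.2, 93.2, 92.4, 90.3 and 89.4 of the level per length on chow, and Col1a1 and Col1a2 at 43.8 and 28.9.

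**Figure D2:**
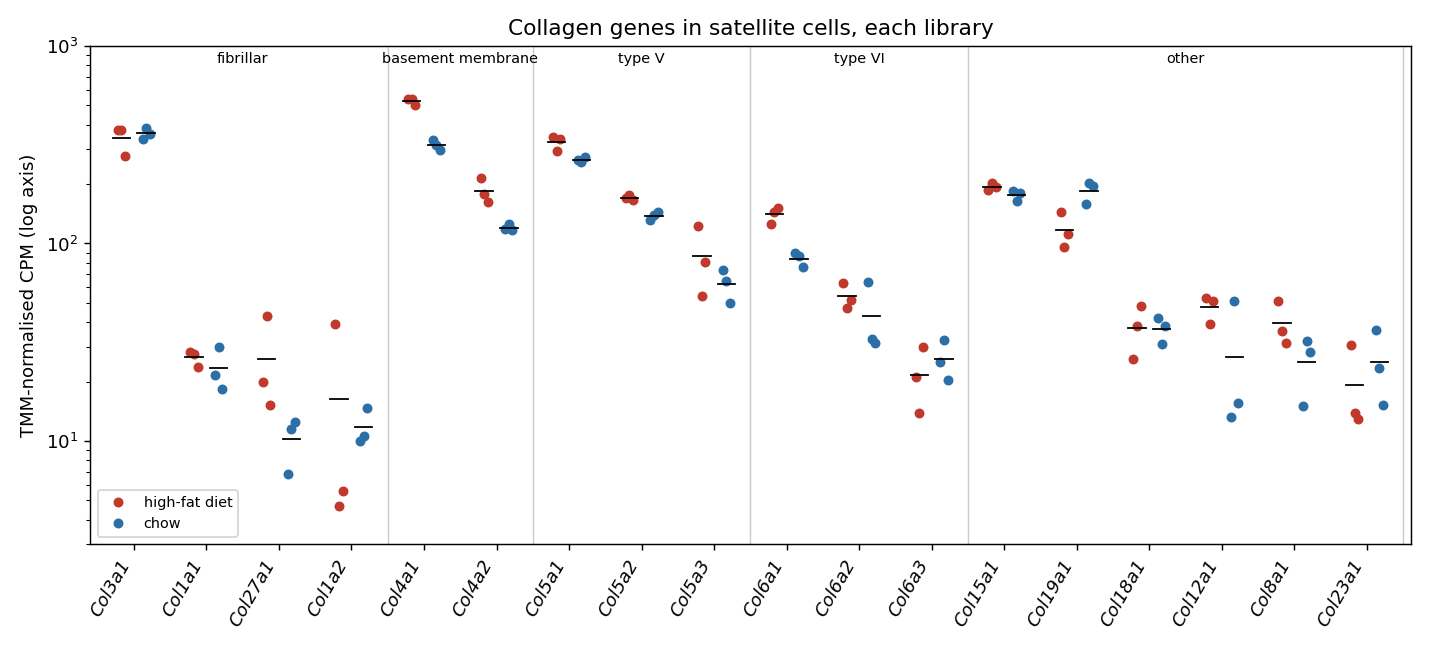
TMM-normalised CPM (log axis) of the 18 collagen genes that average at least 10 CPM, in each high-fat diet library (left of each pair) and chow library (right), with the mean as a line. The points of Col4a1, Col4a2, Col5a1, Col5a2, Col6a1, Col15a1 and Col27a1 lie wholly higher on the high-fat diet, and those of Col19a1 wholly lower.

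Of the basement membrane collagens, Col4a1 and Col4a2 encode the chains of the network found in nearly all basement membranes. Both genes lie head to head on mouse chromosome 8, Col4a1 at 11198423 to 11312889 and Col4a2 at 11312805 to 11449287 (GRCm38.p6), so that their annotated spans share 85 bases, in which reads of the 2 genes could not be told apart without a stated strand setting. In the RefSeq promoter windows (250 bases before to 50 after each start) the start sites are 21 bases apart and the windows overlap by 78 bases. The windows are printed because these neighbours differed between the diets in the same direction. Capitals mark CCAAT or its reverse complement ATTGG and GGGCGG or its reverse complement CCGCCC, letters searched on both strands. The windows of Col6a1 and Col19a1, the other collagens over 100 CPM with an unadjusted p under 0.05, follow for comparison and hold neither, nor TATAAA or its reverse complement TTTATA. The windows are chr8:11312777-11313076 (minus strand), chr8:11312555-11312854 (plus strand), chr10:76725995-76726294 (minus strand) and chr1:24587388-24587687 (minus strand), from RefSeq on GRCm38.p6, each written 5′ to 3′ on its gene's strand.
Col4a1: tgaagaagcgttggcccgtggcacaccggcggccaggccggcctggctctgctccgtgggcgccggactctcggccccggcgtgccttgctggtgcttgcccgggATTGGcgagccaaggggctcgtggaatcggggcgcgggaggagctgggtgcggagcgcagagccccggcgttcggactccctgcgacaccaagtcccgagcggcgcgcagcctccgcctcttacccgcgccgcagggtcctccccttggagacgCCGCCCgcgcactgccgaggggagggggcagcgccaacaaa
Col4a2: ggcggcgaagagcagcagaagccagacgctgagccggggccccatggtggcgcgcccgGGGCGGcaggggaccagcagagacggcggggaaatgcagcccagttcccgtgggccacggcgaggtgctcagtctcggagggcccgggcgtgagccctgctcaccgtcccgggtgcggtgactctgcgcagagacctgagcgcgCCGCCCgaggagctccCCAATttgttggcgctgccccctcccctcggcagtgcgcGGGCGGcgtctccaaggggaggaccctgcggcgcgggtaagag
Col6a1: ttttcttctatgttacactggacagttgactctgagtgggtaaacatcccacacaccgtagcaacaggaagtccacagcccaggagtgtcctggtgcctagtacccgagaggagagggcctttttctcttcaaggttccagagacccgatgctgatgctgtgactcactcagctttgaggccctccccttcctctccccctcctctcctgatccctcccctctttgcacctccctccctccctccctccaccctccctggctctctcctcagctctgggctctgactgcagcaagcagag
Col19a1: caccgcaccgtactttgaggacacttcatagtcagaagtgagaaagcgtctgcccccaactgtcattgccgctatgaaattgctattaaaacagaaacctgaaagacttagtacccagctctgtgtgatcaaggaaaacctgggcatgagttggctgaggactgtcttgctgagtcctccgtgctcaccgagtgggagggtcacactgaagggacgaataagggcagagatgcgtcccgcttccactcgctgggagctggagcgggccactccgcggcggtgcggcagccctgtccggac

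The Col4a1 window holds 1 CCAAT match and 1 GGGCGG match, and the Col4a2 window 1 and 3. The GGGCGG match 7 bases after the Col4a2 start and the one 9 bases after the Col4a1 start lie in the shared stretch and are the same bases read from opposite strands. Both windows are rich in G and C (74% and 73.7%), beside 57.3% for Col6a1, 56.3% for Col19a1 and a median of 52.7% over all windows. Of the family, 35 genes have a window in the table (38 windows). GGGCGG occurs in 60.5% of these and in 35.7% of all 32851 windows, CCAAT in 34.2% and 37.4%, and TATAAA in 13.2% and 13.6%, with overlapping matches counted separately. A match of letters is a description of the window and not a bound site.

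Col4a1 had 539.6, 537 and 501 CPM on the high-fat diet, against 335, 315 and 296 CPM on chow. Every high-fat diet library lay above every chow library, by a margin wider than the range within either diet. The log2 fold change was 0.74 (SE 0.15, a 1.67-fold difference, adjusted p = 0.0855 in edgeR, the 45th smallest p of all genes). Across 17 alternative fits it stayed between 0.68 and 0.79, and its adjusted p ran from 4.73e-05 to 0.452. Col4a1 also passed in edgeR with no filter on low counts (adjusted p = 0.0144).

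Col4a2 had 216, 177 and 161 CPM on the high-fat diet, against 118, 126 and 117 CPM on chow. The diets did not overlap, and high-fat diet library 1 stood above the other two. The log2 fold change was 0.62 (SE 0.20, adjusted p = 0.332 in edgeR). The ratio of Col4a1 to Col4a2 per length was 2.44, 2.95 and 3.02 on the high-fat diet and 2.77, 2.44 and 2.47 on chow. The ratios overlapped (difference of the mean log2 ratio 0.13, two-sided exact permutation p = 0.4, adjusted over 5 chain ratios 0.833), and with 3 libraries against 3 this test cannot go below 0.1.

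The other basement membrane chains, which are typical of kidney, lung and skin, were low. Col4a5 and Col4a6 averaged 5.40 ± 5.05 and 5.56 ± 2.16 CPM on the high-fat diet, and 7.11 ± 4.60 and 8.99 ± 4.501 CPM on chow. Col4a3 had 0, 2.30 and 0.0539 CPM on the high-fat diet, against 5.46, 3.67 and 5.17 CPM on chow, values that did not overlap but rested on 0, 36 and 1 high-fat diet reads (log2 difference -2.59, SE 1.93, adjusted p = 0.894 in edgeR). Without high-fat diet library 2 the fitted difference was -7.07, a value that rests on 1 read. Col4a4, its head-to-head neighbour on chromosome 1, overlapped between the diets, at 2.80, 3.39 and 0 CPM on the high-fat diet and 0.565, 5.42 and 15.0 CPM on chow. The whole class summed to 765, 727 and 682 CPM on the high-fat diet, against 475, 475 and 441 CPM on chow, nearly all of it from Col4a1 and Col4a2.

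**Figure D3:**
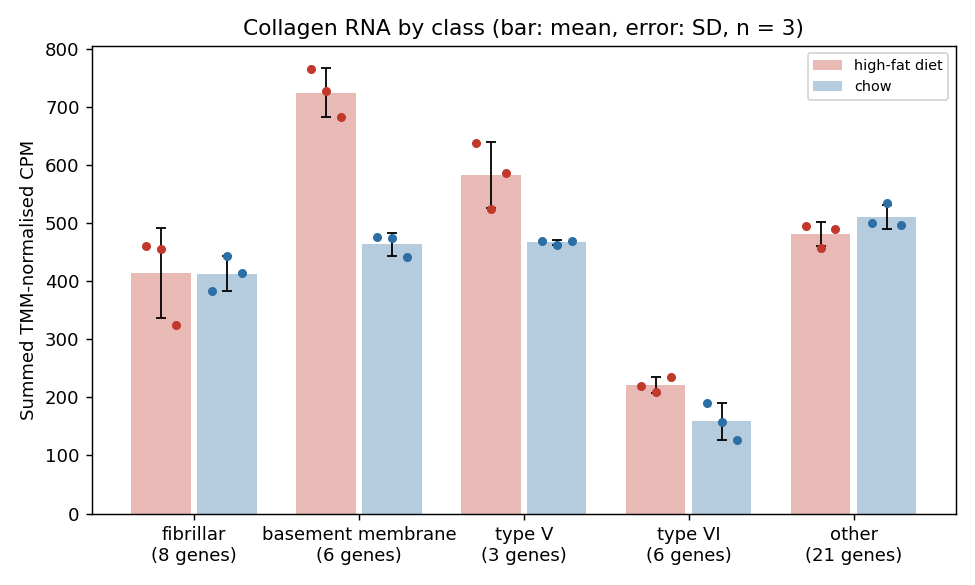
Summed TMM-normalised CPM of the collagen classes in each library (points), with the mean (bar) and SD (n = 3), high-fat diet left of chow. The basement membrane, type V and type VI sums lie higher in every high-fat diet library than in any chow library. For type VI this rests on Col6a1, without which the sums overlap. Of the 4 type VI genes tested, 2 had a positive and 2 a negative log2 fold change. The fibrillar (type V counted apart) and other sums average 413 and 481 CPM on the high-fat diet and 413 and 511 CPM on chow.

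Type V genes were all tested and all had positive log2 fold changes, between 0.29 and 0.46, with 0 of 3 called or under an unadjusted p of 0.05. The class summed to 638, 524 and 587 CPM on the high-fat diet, against 469.5, 462 and 469 CPM on chow. Col5a1, which encodes the chain present in nearly every collagen V trimer, had 345, 294 and 339.9 CPM on the high-fat diet, against 265, 258 and 275 CPM on chow. The diets did not overlap (log2 fold change 0.29, SE 0.16, adjusted p = 0.754 in edgeR).

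Col5a2, the partner chain of Col5a1, had 171, 176 and 166 CPM on the high-fat diet, against 131, 139 and 144 CPM on chow. The diets did not overlap here either, with SDs of 4.95 CPM on the high-fat diet and 6.54 CPM on chow (log2 fold change 0.31, SE 0.18, adjusted p = 0.804 in edgeR). The per-length ratio of Col5a1 to Col5a2 averaged 1.51 ± 0.166 on the high-fat diet and 1.52 ± 0.0664 on chow (exact permutation p = 1, n = 3 each). Col5a3, the third chain, had 123, 53.9 and 80.9 CPM on the high-fat diet, against 73.6, 64.6 and 49.8 CPM on chow. The values overlapped, high-fat diet library 1 was the highest of the 6, and the log2 fold change of 0.46 (SE 0.31) became 0.12 without it, 0.70 without high-fat diet library 2 and -0.03 without high-fat diet library 1 and chow library 3 together. Calcr, the receptor of collagen V on satellite cells, had 193, 147 and 247 CPM on the high-fat diet and 219.6, 234 and 179.7 CPM on chow (log2 fold change -0.11, SE 0.21, adjusted p = 0.999 in edgeR). The values overlapped, and the sign turned to 0.056 without high-fat diet library 2.

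Of the type VI genes, Col6a1 differed most between the diets. It encodes a chain that every collagen VI trimer of muscle contains, and had 126, 144 and 151 CPM on the high-fat diet, against 89.5, 86.1 and 75.7 CPM on chow. The lowest high-fat diet library lay above the highest chow library. The log2 fold change was 0.75 (SE 0.21, a 1.68-fold difference, adjusted p = 0.249 in edgeR), and over 17 alternative fits it ran from 0.68 to 0.83. Col6a1 passed in DESeq2 with no filter on low counts (adjusted p = 0.0333), a setting chosen after seeing the data, and in no other fit.

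Col6a2, the second chain of the trimer, had 63.1, 47.0 and 51.7 CPM on the high-fat diet, against 64.0, 32.9 and 31.4 CPM on chow. Chow library 1 was the highest of the 6, and the log2 fold change of 0.33 (SE 0.35) became 0.75 without it, 0.18 without chow library 2, 0.15 without chow library 3, 0.22 without high-fat diet library 1 and 0.04 without high-fat diet library 1 and chow library 3 together. Col6a3, the third and longest chain, had 21.1, 13.8 and 30.04 CPM on the high-fat diet and 25.2, 32.4 and 20.3 CPM on chow, which overlapped (log2 fold change -0.26, SE 0.46, and -0.57 to -0.02 with each library left out in turn). The per-length ratio of Col6a1 to Col6a2 was 2.26, 3.49 and 3.32 on the high-fat diet and 1.59, 2.97 and 2.74 on chow (exact permutation p = 0.5, adjusted over 5 ratios 0.833). Of the Col6a4, Col6a5 and Col6a6 cluster on chromosome 9, Col6a6 alone was tested, at 4.46 ± 2.66 CPM on the high-fat diet and 5.995 ± 5.56 CPM on chow, and Col6a4 had 0 counts in all 6 libraries.

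Collagen V is itself fibrillar but was kept here as a class of its own. Among the other fibrillar collagens, Col3a1, which forms a trimer of a single kind of chain, was by far the most abundant. It averaged 342 CPM on the high-fat diet and 360 CPM on chow, beside 326 and 266 CPM for Col5a1. Col3a1 had 374, 374 and 277 CPM on the high-fat diet, against 339, 385 and 357 CPM on chow. The diets overlapped and the log2 fold change was -0.08 (SE 0.17, adjusted p = 0.999 in edgeR), turning to 0.06 without high-fat diet library 3, the lowest. Its neighbour Col5a2, whose span lies 24624 bases away on chromosome 1, did not overlap, as given above. Col1a1, the main chain of the collagen I of tendon, bone and scar, had 28.2, 27.7 and 23.6 CPM on the high-fat diet, against 21.6, 30.02 and 18.3 CPM on chow (log2 fold change 0.19, SE 0.42, and 0.04 to 0.41 with each library left out in turn).

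Per length, Col3a1 exceeded Col1a1 by 14.1, 14.4 and 12.5 times on the high-fat diet, against 16.7, 13.7 and 20.8 times on chow. These ratios overlapped between the diets (exact permutation p = 0.3, adjusted over 5 ratios 0.833). Col1a2, the partner of Col1a1, was uneven: it had 38.9, 4.67 and 5.56 CPM on the high-fat diet, against 9.98, 10.6 and 14.6 CPM on chow. High-fat diet library 1 lay above, and the other two high-fat diet libraries below, all chow libraries. The log2 fold change was 0.48 with all libraries (SE 0.79, adjusted p = 0.994 in edgeR) and -1.19 without high-fat diet library 1. The ratio of Col1a1 to Col1a2 per length was accordingly 0.655, 5.35 and 3.84 on the high-fat diet and 1.95, 2.55 and 1.13 on chow (exact permutation p = 0.7, adjusted over 5 ratios 0.875).

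Several markers of fibroblasts and fibro-adipogenic progenitors were highest of the 6 libraries in high-fat diet library 1, where Col1a2 was high. These were Dcn, Dpt, Gsn, Serping1, Lum, Pi16 and Dpp4, while Fbn1 was lowest there and the rest were neither. Dcn had 191, 119 and 103 CPM on the high-fat diet and 122, 112 and 105 CPM on chow. Dpt had 382, 306 and 332 CPM on the high-fat diet and 338, 198 and 206 CPM on chow. Gsn had 399, 295 and 391 CPM on the high-fat diet and 372, 305 and 357 CPM on chow. In high-fat diet libraries 1, 2 and 3, Lum had 26.9, 10.9 and 1.13 CPM, Pi16 14.89, 0 and 0 CPM, and Dpp4 10.3, 0.128 and 1.56 CPM, while in chow libraries 1, 2 and 3 Lum had 11.99, 3.21 and 18.3 CPM, Pi16 0.942, 0.0583 and 0 CPM, and Dpp4 0.0628, 0.117 and 0 CPM. Fbn1, of the same list, was lowest of the 6 in high-fat diet library 1, with 140.2, 165 and 245 CPM on the high-fat diet and 199.1, 165 and 162 CPM on chow. Pdgfra, the defining receptor of these progenitors, had 5.27, 0 and 4.48 CPM on the high-fat diet and 5.02, 8.28 and 3.50 CPM on chow. Of the 15 markers of these cells 13 were tested and 0 were called in edgeR, with 2, Thy1 and Serping1, higher at an unadjusted p under 0.05 (15.4%, beside 7.65% of all genes). Thy1 had 60.8, 70.1 and 59.6 CPM on the high-fat diet, against 13.3, 9.85 and 1.72 CPM on chow (log2 fold change 2.94, SE 0.57, adjusted p = 0.0586). Serping1 had 667, 639 and 609 CPM on the high-fat diet, against 400.3, 424 and 438 CPM on chow (log2 fold change 0.60, SE 0.15, adjusted p = 0.166). Neither overlapped, and Serping1 was the highest of the list in every library. Both were called in DESeq2 (adjusted p = 9.95e-05 for Thy1 and 0.00265 for Serping1) and in limma-voom (0.0144 and 0.023), and Thy1 also in edgeR with no filter (8.18e-09). These fits called 1.5%, 0.75% and 0.839% of all genes. The part of such cells in the collagen values was not tested.

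Col27a1, a fibrillar collagen best known from cartilage, had 19.97, 42.8 and 15.2 CPM on the high-fat diet, against 6.78, 11.5 and 12.5 CPM on chow. All high-fat diet libraries lay above all chow libraries, library 2 far above the rest (log2 fold change 1.34, SE 0.58, adjusted p = 0.604 in edgeR), and without high-fat diet library 2 the log2 fold change was 0.77. Col11a2 had 0.195, 3.84 and 1.56 CPM on the high-fat diet and 4.77, 4.897 and 10.5 CPM on chow, from 3, 60 and 29 high-fat diet reads (log2 difference -1.85, SE 1.38, and -2.92 to -1.30 with each library left out in turn). Col2a1, Col11a1 and Col24a1, the first 2 of them cartilage collagens, did not pass the filter, and their highest value in any library was 1.47 CPM. The fibrillar class as a whole, with type V counted apart, summed to 461, 455 and 324 CPM on the high-fat diet and 383, 443 and 413 CPM on chow.

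**Figure D4:**
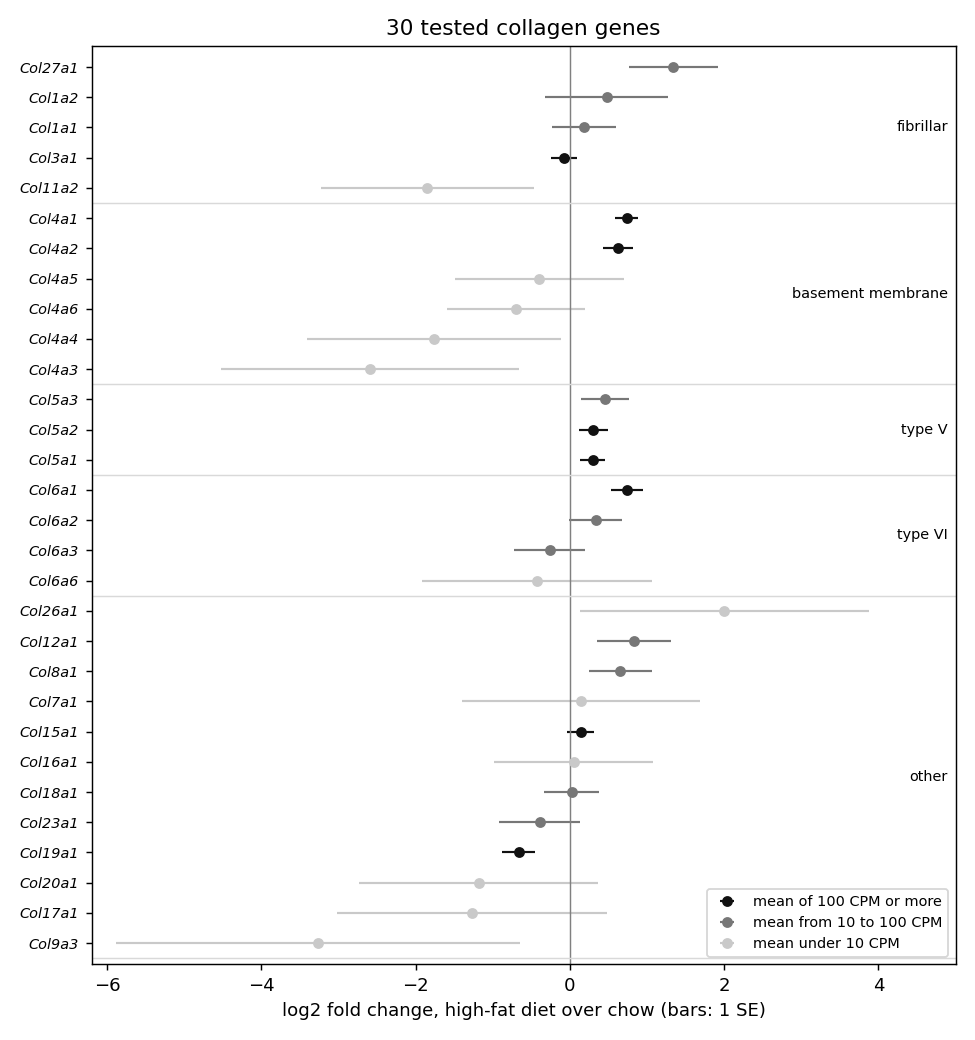
Log2 fold change (high-fat diet over chow) of the 30 tested collagen genes with 1 SE, by class, shaded by mean level. The standard errors of genes under 10 CPM run from 0.89 to 2.62, and those of genes over 100 CPM from 0.15 to 0.22.

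Col19a1 was the abundant collagen whose values lay lower on the high-fat diet without overlap. It encodes a fibril-associated collagen that is found in basement membrane zones, and had 145, 95.7 and 111 CPM on the high-fat diet, against 158, 202 and 196 CPM on chow. The highest high-fat diet library lay below the lowest chow library. The log2 fold change was -0.66 (SE 0.22, 1.58-fold lower, adjusted p = 0.364 in edgeR). Over 17 alternative fits it ran from -0.83 to -0.54 and did not pass in any. Its span ends beside that of Col9a1 on chromosome 1, 4944 bases away, and Col9a1 had 31 reads in high-fat diet library 1 and 0 in the other 5 libraries.

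Col15a1, which attaches basement membranes to the underlying fibrils, had 187, 203 and 193 CPM on the high-fat diet, against 184, 165 and 179.9 CPM on chow. The diets did not overlap, by a gap of under 3 CPM (log2 fold change 0.14, SE 0.18, adjusted p = 0.98 in edgeR). Col18a1, the related collagen from which endostatin is cut, had 25.9, 38.2 and 48.3 CPM on the high-fat diet and 41.8, 30.9 and 38.01 CPM on chow, which overlapped (log2 fold change 0.02, SE 0.36).

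Col12a1, a fibril-associated collagen of tendon and muscle, had 52.7, 38.9 and 51.1 CPM on the high-fat diet, against 13.2, 51.2 and 15.6 CPM on chow. Chow library 2 lay within the high-fat diet range and the other two far below it (log2 fold change 0.84, SE 0.48, adjusted p = 0.778 in edgeR), and the log2 fold change was 1.73 without chow library 2, 0.52 without chow library 1 and 0.57 without chow library 3. Col8a1, a short-chain collagen of vessel walls and the cornea, had 50.9, 36.01 and 31.3 CPM on the high-fat diet, against 15.0, 32.1 and 28.1 CPM on chow. Its ranges overlapped by less than 1 CPM (log2 fold change 0.65, SE 0.41, adjusted p = 0.825 in edgeR, and 0.39 to 0.87 with each library left out in turn). Col23a1, a transmembrane collagen, had 30.8, 13.9 and 12.9 CPM on the high-fat diet and 36.6, 23.6 and 15.2 CPM on chow, which overlapped (log2 fold change -0.39, SE 0.53). The difference was -0.89 without high-fat diet library 1 and -0.01 without chow library 1.

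The remaining tested members averaged under 10 CPM and varied widely between libraries of a diet. They were Col7a1, of the anchoring fibrils of skin, Col16a1, Col17a1, of hemidesmosomes, Col20a1, Col26a1 and Col9a3, with standard errors of the log2 fold change from 1.03 to 2.62 and 0 of 6 under an unadjusted p of 0.05. The values of Col16a1 show the unevenness: it had 1.37, 13.9 and 12.5 CPM on the high-fat diet and 20.2, 1.75 and 4.88 CPM on chow. Of the 14 members that were not tested, Col6a4 and Col13a1 had 0 counts in all 6 libraries, which allows up to 0.162 to 0.195 CPM, and 11 more stayed under 3 CPM in every library. Col14a1, a collagen of fibroblasts, was the exception, with 0, 18 and 0 reads on the high-fat diet and 289, 3 and 1 reads on chow.

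Genes that fold, modify and cross-link collagens were tested beside the family. Of 36 listed, 32 were tested, 24 with a positive log2 fold change, beside 49.5% of all genes, and 5, all higher, had an unadjusted p under 0.05 (15.6%, beside 7.65% of all genes). The list's median log2 fold change was 0.41, beside -0.01 for all tested genes. The 1 gene called was Serpinh1, the chaperone of the collagen triple helix, with 469, 527 and 321 CPM on the high-fat diet, against 208, 189 and 189.2 CPM on chow (log2 fold change 1.17, SE 0.20, adjusted p = 0.0297 in edgeR). Every high-fat diet library lay above every chow library. DESeq2 called 3 of the list (Serpinh1, Loxl2 and Bmp1) and limma-voom 2 (Serpinh1 and Loxl2), all higher. Of all genes, edgeR called 0.258%, DESeq2 1.5% and limma-voom 0.75%. The edgeR call was lost when any library other than high-fat diet library 3 was left out: the adjusted p was 0.0754 and 0.177 without high-fat diet libraries 1 and 2, and 0.0933, 0.17 and 0.163 without chow libraries 1, 2 and 3, while the log2 fold change stayed between 1.01 and 1.35.

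Of 16 listed collagen receptors 13 were tested and 0 were called in edgeR, DESeq2 or limma-voom, with 1 under an unadjusted p of 0.05 in edgeR (7.69%, beside 7.65% of all genes) and 11 with a positive log2 fold change. That 1 was Itga7, a muscle integrin chain that binds laminin rather than collagen and is also a satellite cell marker. No other gene of the list was under an unadjusted p of 0.05. Itga7 had 404, 381 and 322 CPM on the high-fat diet, against 260.4, 193 and 280.2 CPM on chow (log2 fold change 0.59, SE 0.19, adjusted p = 0.328). The discoidin receptor Ddr2, which binds fibrillar collagen, had 513, 499 and 361 CPM on the high-fat diet and 435, 328 and 282 CPM on chow, which overlapped (log2 fold change 0.39, SE 0.20, adjusted p = 0.701).

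Of 17 collagen-degrading enzymes and inhibitors 12 were tested and 0 were called in edgeR, DESeq2 or limma-voom, with 2 higher and 2 lower at an unadjusted p under 0.05 in edgeR (33.3%, beside 7.65% of all genes). The metalloproteinase inhibitor Timp3 had 364, 541 and 480.2 CPM on the high-fat diet and 247, 249 and 374 CPM on chow, which overlapped (log2 fold change 0.67, SE 0.21, adjusted p = 0.322 in edgeR), and passed in edgeR with no filter (0.0471). Reck, a membrane-bound inhibitor, had 2.02, 10.9 and 9.01 CPM on the high-fat diet and 10.7, 25.7 and 30.4 CPM on chow (log2 fold change -1.60, SE 0.72, adjusted p = 0.632).

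Of 26 regulators of collagen genes 25 were tested and 0 were called in edgeR, with 3 higher and 4 lower at an unadjusted p under 0.05 (28%, beside 7.65% of all genes). Among all genes over 100 CPM, 22% were under this p. DESeq2 called 3 (Hes1, Tgfb2 and Cebpb) and limma-voom 2 (Hes1 and Cebpb), all lower, where they called 1.5% and 0.75% of all genes. Hes1, a target of Notch, had 27.1, 16.3 and 44.01 CPM on the high-fat diet, against 78.3, 94.6 and 126 CPM on chow. Its values did not overlap (log2 fold change -1.77, SE 0.36, adjusted p = 0.0703 in edgeR, 0.00135 in DESeq2 and 0.0141 in limma-voom). Other Notch genes of the list were mixed. The receptor gene Notch1 had 663, 589 and 618 CPM on the high-fat diet, against 529, 505 and 413 CPM on chow (log2 fold change 0.37, SE 0.16, adjusted p = 0.582 in edgeR). The rest overlapped between the diets. Their log2 fold changes were -0.37 (SE 0.20) for Rbpj, -0.15 (SE 0.16) for Notch3, -0.11 (SE 0.21) for the target Heyl and 0.06 (SE 0.15) for Notch2. Tgfb2, a TGF-beta ligand, had 81.1, 52.3 and 62.8 CPM on the high-fat diet, against 106, 133 and 142 CPM on chow, which did not overlap (log2 fold change -0.96, SE 0.24, adjusted p = 0.188 in edgeR and 0.0382 in DESeq2). The other ligands of the list were split. Tgfb1 lay higher without overlap, at 38.2, 39.8 and 44.7 CPM on the high-fat diet, against 14.1, 24.1 and 28.7 CPM on chow (log2 fold change 0.88, SE 0.39, adjusted p = 0.631 in edgeR). Tgfb3 lay lower with overlap (log2 fold change -0.69, SE 0.27, adjusted p = 0.517 in edgeR).

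Endothelial cells and pericytes also make collagen IV. The 12 endothelial markers summed to 266, 380 and 461 CPM on the high-fat diet and 308, 395 and 352 CPM on chow, and the 10 pericyte and smooth muscle markers to 1194, 1192 and 1343 CPM on the high-fat diet and 1242, 1365 and 1239 CPM on chow. Tek was the largest part of the endothelial sum, with means of 161 CPM on the high-fat diet and 172 CPM on chow. In high-fat diet library 1 it had 183 of the 266 CPM. Notch3 and Des, which satellite cells also express, averaged 539 and 502 CPM on the high-fat diet and 599 and 485 CPM on chow and made up most of the pericyte sum, while Pdgfrb averaged 6.59 CPM on the high-fat diet and 11.7 CPM on chow. Both sums overlapped between the diets, and each list had 1 member higher at an unadjusted p under 0.05, Kdr and Tagln. Kdr, a receptor of vascular endothelial growth factor, had 24.3, 23.8 and 39.3 CPM on the high-fat diet, against 11.9, 13.7 and 7.29 CPM on chow, and Pecam1 4.94, 42.02 and 41.5 CPM on the high-fat diet and 22.3, 32.4 and 65.7 CPM on chow. The 7 tenocyte markers summed to 24.4 to 50.4 CPM on the high-fat diet and 32.9 to 55.3 CPM on chow, and the 8 Schwann and neural markers, mostly Ncam1, to 353 to 419 CPM on the high-fat diet and 294 to 408 CPM on chow. The 11 immune markers summed to 9.39 to 29.9 CPM on the high-fat diet and 21.9 to 57.6 CPM on chow, and the 6 adipocyte markers to 42.7 to 120.5 CPM on the high-fat diet and 42.5 to 104 CPM on chow. The 12 myofibre markers summed to 29.6 to 39.01 CPM on the high-fat diet and 40.9 to 45.9 CPM on chow, which did not overlap. Of these 7 lists 0 members were called in edgeR, DESeq2 or limma-voom, with Kdr and Tagln the members under an unadjusted p of 0.05 in edgeR, and their part in the collagen values was not tested.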

How the data were processed

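RNA-seq was measured in 6 libraries of sorted satellite cells. The authors deposited whole-number read counts per Entrez gene ID without normalization, 1 file per library. Bowtie2, featureCounts and the builds GRCm38 and mm10 are named in the submitters' processing notes. The sources used here do not give versions, the strand setting or how multiply mapped reads were treated, so reads where genes overlap are uncertain. The labels state at least 50000 sorted cells a replicate. RNA integrity ran from 8.5 to 9.4, ribosomal RNA was depleted and 75-bp single reads were sequenced.

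Of 27179 IDs, 25275 were matched to symbols in the RefSeq table of GRCm38.p6 and 18 through GENCODE M21. The test was edgeR 4.0.16 in R 4.3.3 (filterByExpr with a minimum count of 10, TMM scaling, glmQLFit and glmQLFTest, two-sided, diet as the only factor). The standard error is the absolute log2 fold change over the square root of F. Chain ratios used exact permutation tests. The edgeR test was also run on counts simulated with the mean levels and dispersions of these same libraries. Such a check cannot show whether the model suits these libraries. Counts of 0 and floors cover counting error only. Within a diet the chi-square per degree of freedom between libraries was 60.3 to 90.8, so no pair agreed within sampling noise. The members and lists were chosen with earlier results of these data known. Values per library are given for members with a mean of at least 10 CPM or an unadjusted p under 0.05 and their partner chains. Of each other list the called genes, or else the 2 of smallest p, are named. Other genes (Calcr, Lum, Pi16, Dpp4, Dcn, Dpt, Gsn, Fbn1, Pdgfra, Pdgfrb, Pecam1, Tek, Cd68, Lyz2, Notch1, Notch2, Rbpj, Heyl, Notch3, Tgfb1, Tgfb3, Des, Ncam1 and low collagens such as Col16a1) were chosen after their values were seen.

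Alternatives were other scalings, other filters, DESeq2 1.42.0, limma-voom (limma 3.58.1), a block for the replicate number, a threshold of 0.1 for the adjusted p, a correction for transcript length (smoothed trend, span 0.3), and leaving out libraries.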

Additional observations from a re-analysis of the deposited data

How the results depend on the processing

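The absence of called collagen genes held under other scalings, a stricter filter, the length correction, the replicate block and every fit with libraries left out. The count was 1 of the family with no filter, with DESeq2, with limma-voom and at an adjusted p under 0.1 (Col4a1 in each), and 2 in DESeq2 with no filter (Col4a1 and Col6a1), a setting chosen after seeing the data. Over all genes 34 were called, against 163 with no filter, 198 with DESeq2, 273 in DESeq2 with no filter, 99 with limma-voom and 1 without high-fat diet library 1 and chow library 3 together. With each library left out in turn the count over all genes ran from 9 to 44, and that of collagen genes was 0 throughout. Of 561 fold changes of named genes under alternatives, 11 turned round. These were Col18a1 (-0.0075 with the replicate block, and -0.20 to 0.24 with each library left out in turn), Col1a2 (-0.28 with limma-voom, -0.30 with the replicate block, -0.999 without both libraries and -1.19 to 0.92 with each left out), Col3a1 (-0.15 to 0.056 with each left out), Col5a3 (-0.026 without both libraries), Calcr (-0.31 to 0.056 with each left out) and Heyl (-0.32 to 0.016 with each left out). The cause was not tested. Libraries of the same number did not deviate together (correlations of 0.02, 0.03 and -0.03). This shows no strong deviation shared by number but cannot tell whether samples were paired, and the labels state no pairing. With the replicate block 45 of all genes and 0 collagen genes were called, and Col4a1 had an adjusted p of 0.0815. Collagens under 10 CPM are limited by the spread between libraries.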
